A study of Peromyscus californicus with 17 samples.

Results

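Lung transcriptomes of virgin male Peromyscus californicus, the monogamous California mouse, were compared with those of males whose pair bond had been broken. The comparison takes the columns of the virgins V2 to V6 and of the bond-disrupted animals BD1 to BD6, thus 11 of the 17 animals sequenced, and of 27786 genes in the table it tests the 15463 that had a usable length and reached 1 FPKM (fragments scaled by gene length and library depth) in at least 1 animal. The bond-disrupted males had lived with a female for about 4 months and were then taken out of that cage, with the lungs collected 7 days later. Virgin males had no mate and were housed in groups. All animals were males aged 12 to 15 months from an outbred stock, and each library came from the lung tissue of 1 animal, so n counts animals. Animals of the same number came from the same family, as siblings or, for some virgins such as V3, as cousins. The groups differed in bonding history, in recent separation and in the company in the cage, and these cannot be told apart here. The 6 bonded males, the third group of the study, entered the recovery of gene lengths, the filter on low values and the estimate of the spread.

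California mice form lasting pair bonds and both parents rear the young, and separation from the mate is used in them as a social stressor. Stress is known to act on peripheral tissue through glucocorticoids and sympathetic nerves, which in the lung reach the alveolar epithelium, the airways, the vessels and the resident immune cells. RNA of a whole lung is a mixture of these cells, and in bulk samples fewer cells of a type and less RNA per cell cannot be told apart. Single genes are described first, then markers of cell types, then pathways.

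The FPKM of each column had been divided by the lengths of other genes, with the offset moving by 1 row from each column to the next, so lengths lay along the diagonals of the table. This diagonal effect was removed first. Fragments were recovered and divided again by the length of the gene itself, which was possible for 26133 genes (94.1%). For the 12905 genes averaging 100 fragments or more, log2 FPKM had a median SD over all 17 animals of 1.53 in the deposited table and 0.215 with own lengths. Recovered depths were 18980000 to 22450000 fragments in virgins and 21930000 to 29700000 in bond-disrupted animals, up to a factor that FPKM does not fix. The libraries carried the defining transcripts of lung. Sftpc, a surfactant protein of type 2 alveolar cells, stood at 15380 to 26333 FPKM in virgins and at 12001 to 27993 FPKM in bond-disrupted animals, and Ager, the marker of type 1 alveolar cells, at 1391 to 1893 and at 1413 to 2336 FPKM. Scgb1a1, the secretoglobin of club cells, was the most abundant of the 3, at 53667 to 171960 and at 61413 to 118800 FPKM.

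With own lengths, no gene passed the test between virgin and bond-disrupted lungs. The limit was an adjusted p under 0.1 in limma together with a difference of at least 2-fold, and 0 of 15463 genes (0.0%) met it. The lowest adjusted p was 0.948. In the same limma test it was 0.107 without BD6, 0.144 with no filter on low values and 0.231 without V3. At an unadjusted p under 0.05 stood 650 genes (4.2%), of which 332 were higher in virgins (2.15% of all) and 318 were lower (2.06% of all). With a median-ratio factor for each library, 282 were higher and 419 were lower. A second method, limma's voom on the recovered fragments, had 772 of 16710 genes at an unadjusted p under 0.05 (4.62%), and 0 genes at an adjusted p under 0.1 (0.0%). On the log2 scale, differences (virgin minus bond-disrupted) had a median of 0.0043 over all genes, and 51.5% of them lay above 0 and 48.5% below. The middle of the distribution, from the 5th to the 95th percentile, ran from −0.26 to 0.29.

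The precision of the comparison can be read from its intervals. The median standard error was 0.124 on the log2 scale, and the 95% interval of the difference lay within 2-fold in either direction for 14599 genes (94.4%) and within 1.5-fold for 12114 genes (78.3%). The fitted means of 41 genes differed by 2-fold or more, 15 higher and 26 lower in virgins, and 17 of these had an unadjusted p under 0.05. For comparison, the deposited values gave 35 called genes in the same fit (0.188% of 18602). Of these, 32 could be tested with own lengths, where their differences ran from −0.26 to 0.22 and 2 had an unadjusted p under 0.05. Their median absolute difference was 3.83 on the log2 scale as deposited and 0.074 with own lengths.

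**Figure D1:**
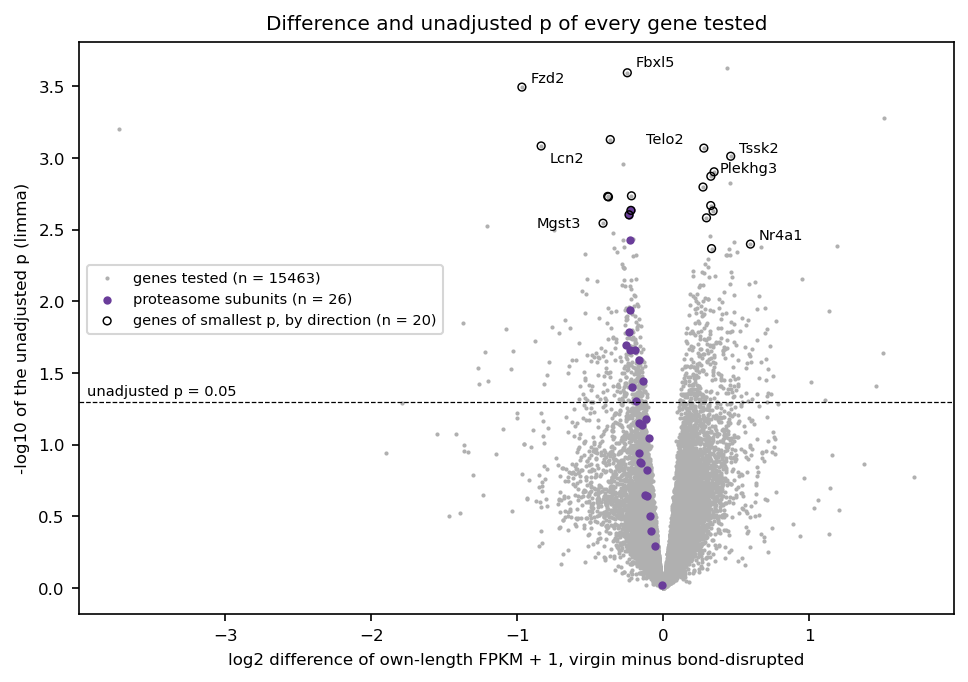
Log2 difference of own-length FPKM + 1 (virgin minus bond-disrupted, x axis) and −log10 of the unadjusted limma p (y axis) for the 15463 genes tested. Purple points are the 26 proteasome subunits, which all lie left of 0, circles are the 10 genes of smallest p in each direction among those that can be named, and the dashed line marks an unadjusted p of 0.05, above which 650 genes lie.

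The groups rarely separated. In 43 genes (0.278%) the ranges of the groups did not overlap, 25 with every virgin above every bond-disrupted animal (0.162%) and 18 with every virgin below (0.116%). The genes of smallest p, described next, were picked by that p, so their values are a description and not a second test. All had an adjusted p of 0.948 in limma. A gene known only by a LOC number, which stood before them in the order of p, is not described.

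Among genes lower in virgins, Fbxl5, the iron-sensing receptor of a ubiquitin ligase that removes iron regulatory proteins, had the smallest p. Its level in virgins was 30.9, 31.3, 30.8, 32.7 and 31.9 FPKM (V2 to V6), and in bond-disrupted animals it ran from 34.7 to 39.3 FPKM with a median of 38.5. The groups did not overlap, and the difference was small, −0.25 ± 0.05 on the log2 scale (SE, adjusted p = 0.948). It was only −0.07 where the lengths were fitted as effects of the table's diagonals in place of being solved (the fit of diagonals). Fzd2, a receptor for Wnt ligands, had a wider gap. Virgins had 3.89, 7.15, 4.04, 3.65 and 1.64 FPKM, and bond-disrupted animals 6.17 to 12.2 FPKM (median 8.32). Only V3 lay within the range of the bond-disrupted animals, and the difference was −0.97 ± 0.21 (SE, adjusted p = 0.948). Lcn2, a secreted lipocalin that binds iron-carrying siderophores and marks inflamed epithelium, stood at 15.9, 13.3, 18.6, 23.7 and 13.2 FPKM in virgins against 19.1 to 49.5 FPKM (median 28.8). V5 alone exceeded the lowest bond-disrupted animal, BD5, and the difference was −0.84 ± 0.20 (SE, adjusted p = 0.948).

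Psmd10, a chaperone of proteasome assembly, had 10.4, 14.3, 10.9, 11.995 and 13.02 FPKM in virgins and 14.3 to 17.3 FPKM in bond-disrupted animals (median 16.03). V3 and BD3 were level at this precision, and the other virgins lay below all bond-disrupted animals (difference −0.37 ± 0.10, SE). Psmd12, a lid subunit of the 26S proteasome, was at 39.2, 37.2, 36.5, 38.5 and 38.3 FPKM against 40.1 to 50.5 FPKM (median 44.2), again without overlap. Psmc6, an ATPase of the same particle, ran from 33.4 to 37.3 FPKM in virgins and from 36.8 to 45.5 FPKM in bond-disrupted animals, where only BD2 reached down to the virgins. Ndufaf1, an assembly factor of respiratory complex I, was at 8.37 to 9.74 FPKM in virgins and at 10.2 to 11.4 FPKM in bond-disrupted animals, without overlap (difference −0.22, or −0.14 in the fit of diagonals). Mgst3, a microsomal glutathione transferase, ran from 108 to 139 FPKM against 124 to 211 FPKM (difference −0.41), with BD4 as the only bond-disrupted animal inside the virgin range. Gtf2h2c, a subunit of transcription factor TFIIH, did not overlap either (12.98 to 16.5 against 18.4 to 21.6 FPKM), but copies of this gene are near identical in some mammals and can share fragments, so its level is uncertain. Lonrf3 was at 2.39 to 4.20 FPKM in virgins and at 3.84 to 4.88 FPKM in bond-disrupted animals, and V2 was the one virgin within the range of the others.

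Higher in virgins was Telo2, a cochaperone of the kinases mTOR and ATM. Its level was 9.33, 8.10, 7.88, 7.49 and 8.53 FPKM in V2 to V6 and 6.04 to 7.45 FPKM in bond-disrupted animals (median 6.66). The lowest virgin, V5, and the highest bond-disrupted animal, BD1, nearly met (difference 0.28 ± 0.07, SE, adjusted p = 0.948). Tab1, which activates the kinase TAK1, had 11.2, 11.3, 12.1, 12.96 and 11.3 FPKM in virgins against 7.68 to 10.5 FPKM (median 9.84), and its groups did not overlap (difference 0.27). Nr4a1, an orphan nuclear receptor induced within minutes of many stimuli, differed by more. Virgins stood at 22.4, 17.003, 12.7, 24.2 and 15.98 FPKM and bond-disrupted animals at 9.13 to 13.9 FPKM (median 12.2). V4 was the only virgin within the range of the others, and the difference was 0.60 ± 0.18 (SE, adjusted p = 0.948).

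The rest of these genes differed by 0.30 to 0.46 on the log2 scale and overlapped slightly. Plekhg3 and Spata13, guanine nucleotide exchange factors, were at 6.18 to 7.16 against 4.73 to 6.24 FPKM and at 6.67 to 8.92 against 5.11 to 6.99 FPKM. Tbc1d9, a protein with the domain of Rab GTPase activators, ran from 6.15 to 8.25 FPKM in virgins and from 4.95 to 6.79 FPKM in bond-disrupted animals. Capn10, a calpain protease, lay at 5.86 to 7.75 against 4.26 to 6.13 FPKM, and Slc22a18, an organic ion transporter, at 9.52 to 13.97 against 7.17 to 10.7 FPKM. Tssk2, a kinase named for the testis, stood at only 2.62 to 4.95 FPKM against 1.72 to 2.66 FPKM, and the open reading frame CUNH15orf39 at 2.96 to 4.32 against 2.13 to 3.21 FPKM. In the fit of diagonals the difference of Capn10 was 0.10 in place of 0.30. In each of these 7 genes all 5 virgins were above the median of the bond-disrupted animals.

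**Figure D2:**
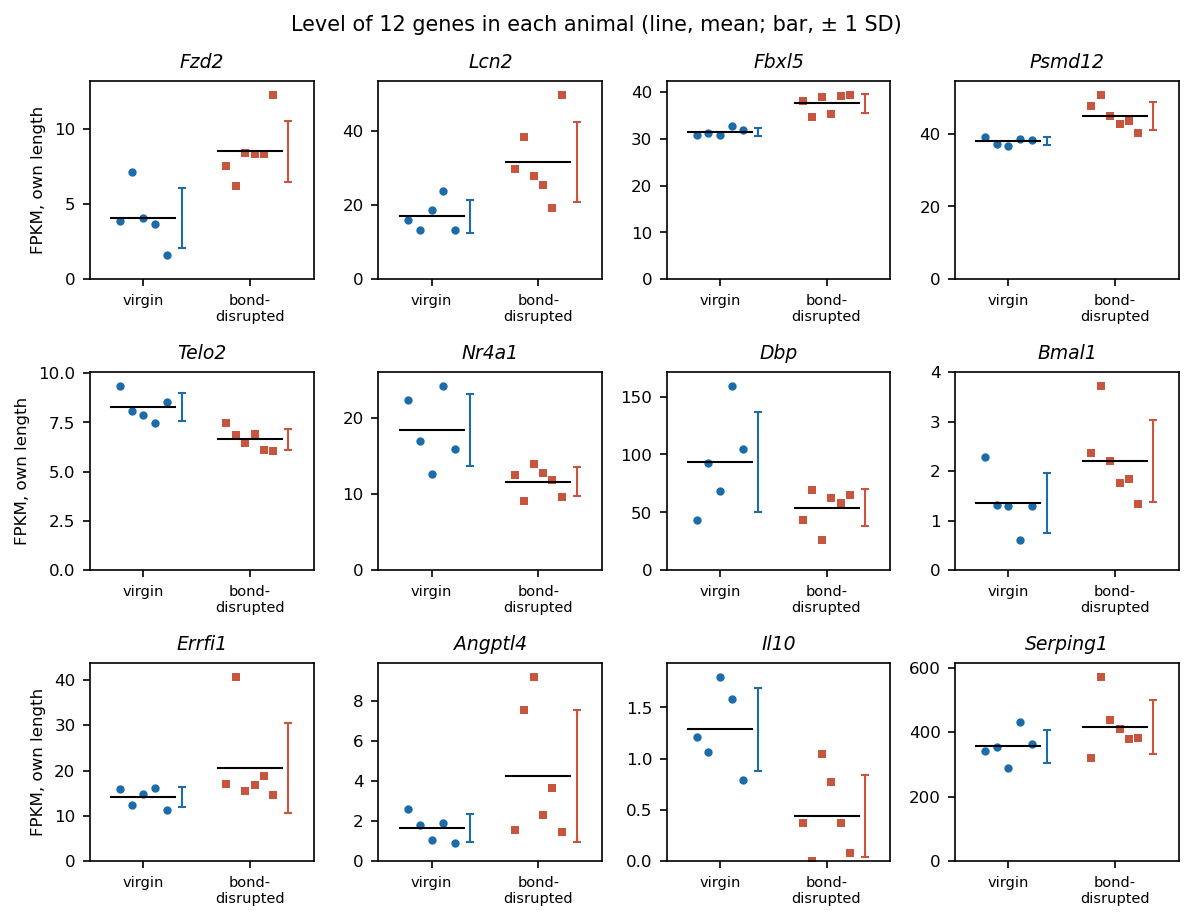
Own-length FPKM (y axis) of 12 genes in each of the 5 virgin (blue circles) and 6 bond-disrupted (red squares) animals, in order of their number, with the mean as a black line and ± 1 SD as a bar. Groups do not overlap in Fbxl5, Psmd12 and Telo2, 1 virgin lies within the bond-disrupted range in Fzd2 and Nr4a1, and 1 animal, BD2, stands far above the rest in Errfi1.

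Cell types were followed through 29 lists of marker genes, whose members were averaged in each animal as log2(FPKM + 1) relative to the mean of the 11 animals. In 0 of all 54 lists, pathways included, did these averages separate the groups. The gas-exchange epithelium had small medians whose sign depended on single animals. Of 9 type 2 alveolar genes 3 were higher and 6 lower in virgins (median −0.04), none at an unadjusted p under 0.05, and Sftpb, which organises surfactant, averaged 3048 ± 561 (SD) FPKM in the 5 virgins against 3109 ± 471 FPKM in the 6 bond-disrupted animals. Type 1 alveolar genes had a median of −0.06 over 10 members, with Hopx, a homeodomain protein of these cells, at 578 to 906 FPKM against 475 to 1264 FPKM. The type 1 median was −0.16 without BD2, 0.04 without V4 and −0.20 without both BD2 and BD6. The type 2 median was −0.0998 without V3 and 0.024 without BD3. Under quantile normalization the medians of the type 1 (0.046), club and goblet (−0.03) and mast cell (0.001) lists took the opposite sign. The mesothelial list did so in voom (0.05), and the dendritic and erythroid lists in voom (0.17 and 0.16) and with a pseudocount of 0.1 (0.16 and 0.17).

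Markers of ciliated cells, which beat mucus up the airways, lay on the higher side in virgins throughout. All 13 members tested were above 0 (51.5% of all genes were), with a median of 0.25, and 1 had an unadjusted p under 0.05 (2.15% of all genes were higher at that limit). That gene was Dnai1, an axonemal dynein chain mutated in primary ciliary dyskinesia, at 2.57, 4.40, 6.27, 2.97 and 4.83 FPKM in virgins and at 1.94 to 3.37 FPKM in bond-disrupted animals (median 2.49). V2 and V5 lay within the bond-disrupted range and V3, V4 and V6 above it. The microtubule protein Tppp3 averaged 298 ± 86.2 (SD) FPKM in the 5 virgins against 240.2 ± 66.1 FPKM in the 6 bond-disrupted animals, and Foxj1, the transcription factor of motile cilia, spread from 10.7 to 54.6 FPKM among virgins alone. The list averages of the virgins ran from −0.63 in V2 to 0.83 in V4, and those of the bond-disrupted animals from −0.35 to 0.31. Without V4, 8 of 13 members were above 0 and the median was 0.094, while it was 0.14 without V6 and 0.45 without V2. The sole basal cell gene tested, Krt5, reached 3.94 FPKM in V6 and was between 0.067 and 0.695 FPKM in the 10 other animals. Neuroendocrine markers were lower in virgins in 5 of 5 (median −0.23), and Uchl1, a ubiquitin hydrolase of neurons and neuroendocrine cells, reached 13.99 FPKM in BD6 against 0.954 to 3.16 FPKM in the other bond-disrupted animals.

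Mural cells showed the same one-sidedness without a separation of groups. All 10 smooth muscle genes tested were higher in virgins (median 0.23), as were all 6 pericyte genes (median 0.17), against 51.5% of all genes, and none had an unadjusted p under 0.05. Acta2, the actin of smooth muscle, averaged 282 ± 60.3 (SD) FPKM in the 5 virgins against 239.7 ± 84.6 FPKM in the 6 bond-disrupted animals, Tagln, an actin-binding protein of the same cells, 287 ± 62.6 against 277 ± 108 FPKM, and Pdgfrb, the growth factor receptor of pericytes, 51.8 ± 10.6 against 45.3 ± 10.3 FPKM. The smooth muscle average was −0.83 in BD6 and 0.59 in BD2, which brackets all virgins. Without BD6, 8 of 10 smooth muscle genes were higher and the median was 0.089, and 5 of 6 pericyte genes were higher with a median of 0.061. With a median-ratio factor or voom, 9 of the 10 smooth muscle genes were higher. Arterial and venous genes were higher in 4 of 9 (median −0.14, which was −0.024 without BD2 and −0.26 without BD6) and lymphatic genes in 2 of 7 (median −0.02, or 0.034 without V5). Capillary endothelium was mixed, with 6 genes higher and 4 lower, and its median of 0.08 was −0.026 without BD6. Its adhesion molecule Pecam1 averaged 206 ± 22.6 FPKM against 209 ± 51.3 FPKM, and Cdh5, the cadherin of endothelial junctions, 208 ± 34.5 against 176 ± 28.0 FPKM.

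Fibroblast genes were higher in 10 of 12, against 51.5% of all genes, with a median of 0.08, which was 0.012 without BD2 and −0.08 without both BD2 and BD6, and 1 had an unadjusted p under 0.05, where 2.15% of all genes were higher. This was Dpt, a matrix protein that binds decorin, with 145, 233, 174, 281 and 205 FPKM in virgins and 87.3 to 224 FPKM in bond-disrupted animals (median 121). All virgins exceeded that median, but BD4, at 224 FPKM, stood among them (difference 0.66 ± 0.29, SE, adjusted p = 0.948). Decorin itself, encoded by Dcn, had the opposite sign, at 679 ± 79.8 (SD) FPKM in the 5 virgins against 777 ± 186 FPKM in the 6 bond-disrupted animals. Inmt, an amine methyltransferase that is abundant in lung, was at 2409 to 4009 against 1736 to 3352 FPKM. Cardiac muscle genes, which in rodents are also expressed in the walls of the pulmonary veins, were higher in 11 of 13 (median 0.25) with none at an unadjusted p under 0.05. Their animal averages reached 0.92 in V5 and −0.70 in BD3, and the median was 0.027 without V5 and 0.13 without BD3. The atrial light chain Myl7 ran from 54.5 to 159 FPKM in virgins and from 39.2 to 142 FPKM in bond-disrupted animals, and myoglobin (Mb) from 36.8 to 142 against 29.0 to 82.6 FPKM.

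Markers of lymphocytes and of platelets had mostly positive signs. B cell genes were higher in virgins in 8 of 8 (median 0.28), T cell genes in 10 of 11 (median 0.38), natural killer cell genes in 5 of 5 (median 0.30), plasma cell genes in 6 of 7 (median 0.18) and platelet genes in 6 of 6 (median 0.29), against 51.5% of all genes. The plasma cell median was 0.12 without V6 and the platelet median 0.17 without BD5. With quantile normalization or voom, 5 of the 6 platelet genes were higher. At an unadjusted p under 0.05 was 1 gene each of the T, natural killer and plasma cell lists and none of the B cell and platelet lists, while 2.15% of all genes were higher at that limit. Lef1, a transcription factor of naive T cells, stood at 9.91, 11.3, 23.0, 8.15 and 10.99 FPKM in virgins and at 5.18 to 13.9 FPKM in bond-disrupted animals (median 7.35). V4 was far above all others, and the other 4 virgins lay within the bond-disrupted range (difference 0.54 ± 0.25, SE, or 0.31 without V4). Eomes, a transcription factor of natural killer and cytotoxic T cells, was low, at 2.59, 2.05, 2.28, 1.51 and 1.70 FPKM against 0.994 to 1.91 FPKM (median 1.49), with V2, V3 and V4 above the range of the others. Tnfrsf17, the receptor BCMA of plasma cells, was at 2.12 to 2.64 FPKM in virgins and at 1.47 to 2.29 FPKM in bond-disrupted animals, with BD4 the only one of these among the virgins. The exceptions to the positive signs in the plasma and T cell lists were their most abundant members. Xbp1 of the plasma cell list averaged 119 ± 14.3 (SD) FPKM in virgins against 129 ± 22.8 FPKM in bond-disrupted animals (difference −0.10). Lat of the T cell list averaged 20.8 ± 9.98 against 22.0 ± 10.02 FPKM (difference −0.04).

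One bond-disrupted animal, BD2, carried part of these signs. Its averages were the lowest of the 11 for B cells (−1.20), T cells (−0.79), natural killer cells (−0.70), monocytes and other macrophages (−0.75) and erythroid cells (−0.86). Cd8a, the coreceptor of cytotoxic T cells, was 3.71 FPKM in BD2 against 10.2 to 23.5 FPKM in virgins, and Cd79a, the signalling chain of the B cell receptor, 11.3 FPKM against 24.0 to 56.5 FPKM. Without BD2 the median was 0.059 for B cells (6 of 8 higher), 0.24 for T cells (10 of 11 higher) and 0.24 for natural killer cells (4 of 5 higher). It was also 0.093 for B cells without V2 and 0.17 for T cells without V4. The perforin gene Prf1 averaged 2.73 ± 1.084 (SD) FPKM in the 5 virgins against 1.75 ± 0.768 FPKM in the 6 bond-disrupted animals.

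Macrophage lists had negative medians. Alveolar macrophage genes were lower in virgins in 4 of 5 (median −0.23), and genes of monocytes and other macrophages were lower in 6 of 11 with a median of −0.23. None of either list had an unadjusted p under 0.05. Marco, a scavenger receptor of alveolar macrophages, ran from 48.7 to 136 FPKM in virgins and from 16.1 FPKM in BD2 to 183 FPKM in BD3. Cd68, a lysosomal protein of macrophages, was at 31.1 ± 6.32 (SD) FPKM in the 5 virgins against 38.8 ± 16.1 FPKM in the 6 bond-disrupted animals, and Csf1r, the receptor that maintains them, at 39.3 ± 13.1 against 39.4 ± 21.5 FPKM. BD3 and BD6 were the highest of the 11 animals in both lists, at 0.74 to 0.77. Without BD3 the monocyte list had a median of −0.03, without BD2 it had −0.32 with 10 of 11 genes lower, and without BD6 it had −0.069 and the alveolar macrophage list −0.08. The alveolar macrophage median was −0.40 without BD5 and −0.38 without BD2. Of 5 neutrophil genes 4 were higher in virgins, against 51.5% of all genes. Their median of 0.23 was 0.0089 without V2 and 0.011 without BD2. At an unadjusted p under 0.05, where 2.15% of all genes were higher, stood only Padi4, which citrullinates histones in neutrophils. It was at 6.02, 2.48, 3.16, 1.92 and 1.69 FPKM in virgins against 0.451 to 2.52 FPKM in bond-disrupted animals (median 1.48). V2 and V4 lay above the bond-disrupted range and the other virgins inside it, and the difference of 0.61 was 0.39 without V2.

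**Figure D3:**
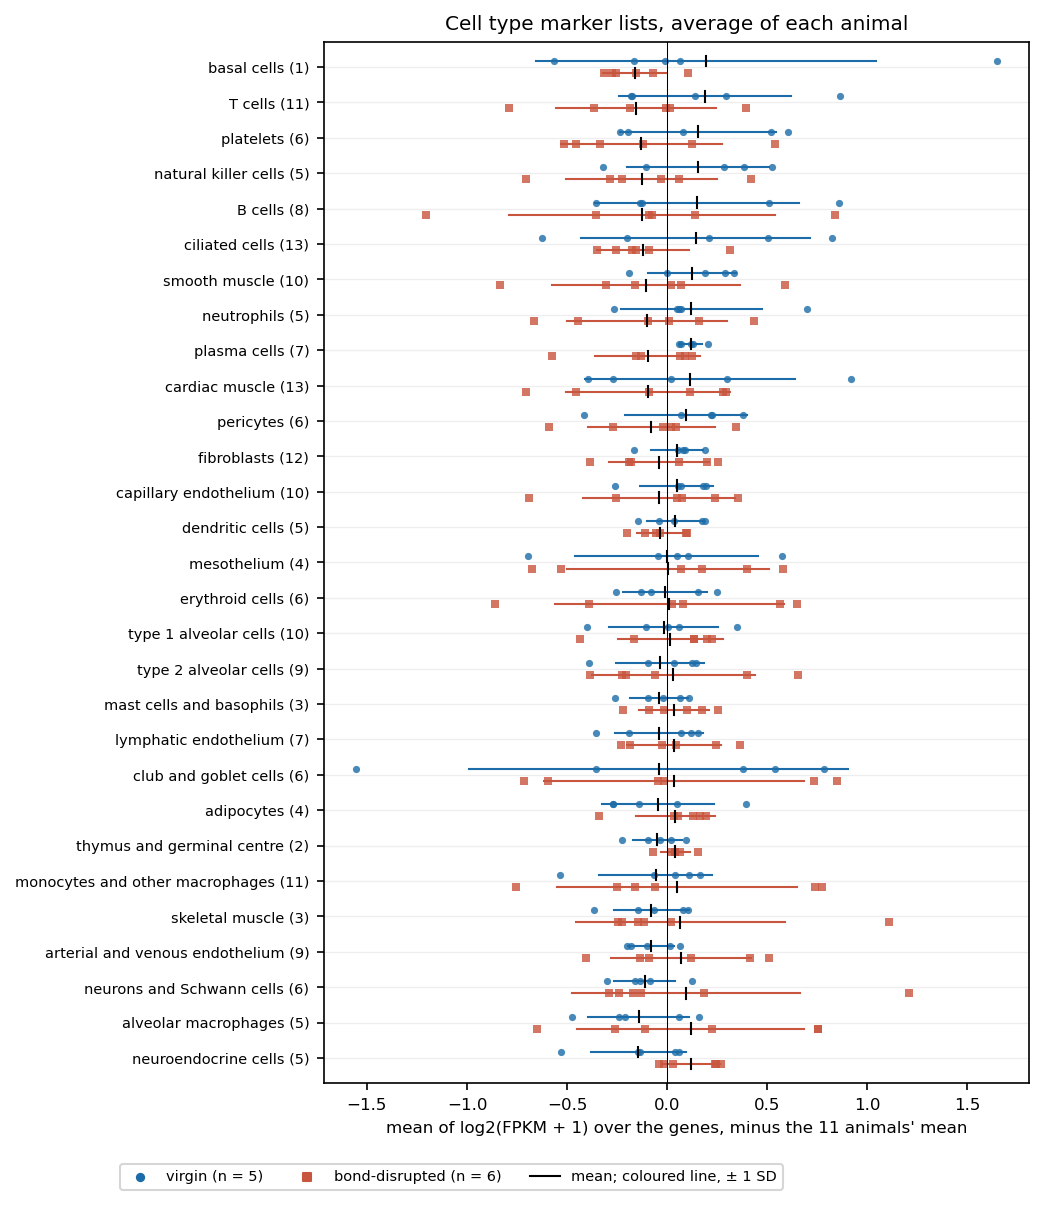
Average of each cell type marker list in each animal (x axis, log2(FPKM + 1) minus the mean of the 11 animals; number of genes tested in brackets), with virgins as blue circles, bond-disrupted animals as red squares, the group mean as a black tick and ± 1 SD as a coloured line. No list separates the groups, and single animals stand out, such as V6 at 1.65 for basal cells and BD6 at 1.21 for neurons and Schwann cells.

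Pathways were followed through 25 further lists. The proteasome, the protease complex that degrades ubiquitinated proteins, held the longest list with every member on 1 side. All 26 subunits tested were lower in virgins (48.5% of all genes were), and 12 of them had an unadjusted p under 0.05 (2.06% of all genes were lower at that limit). The median difference was −0.16 and the range −0.25 to −0.01 on the log2 scale, so each subunit was lower by a small amount, and none passed the adjustment (adjusted p of 0.948 or more). Among the 12 were Psma1 of the outer rings, Psmb1 of the inner rings, the ATPases Psmc1 and Psmc6 of the base, and Psmd12 of the lid.

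Psmc1 illustrates the size. Virgins had 57.2, 56.8, 57.8, 61.9 and 63.0 FPKM, and bond-disrupted animals 62.7 to 80.1 FPKM (median 67.8). V6 alone passed the lowest of these, BD4, and the difference was −0.23 ± 0.07 (SE, adjusted p = 0.948). Psmb1 averaged 117 ± 10.2 (SD) FPKM in the 5 virgins against 134 ± 14.004 FPKM in the 6 bond-disrupted animals. Psmb4, also of the inner rings, was among the 14 that did not reach that limit, at 105 ± 7.28 against 112 ± 17.7 FPKM.

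Averaged over the 26 subunits, virgins stood at −0.16, −0.17, −0.04, −0.03 and −0.03 (V2 to V6), and bond-disrupted animals from −0.06 to 0.29 with BD1 the highest. The groups overlapped at BD2 and BD4, both at −0.06. Without BD1, 24 of 26 subunits were lower, 6 at an unadjusted p under 0.05, with a median of −0.12, and without V2 or V3 25 were lower, with 7 and 6 at that limit. Quantile normalization gave 24 lower and 9 at that limit, and 26 remained lower with a median-ratio factor or voom, with 14 at that limit in each. In the fit of diagonals, 26 were lower and 3 were at that limit.

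**Figure D4:**
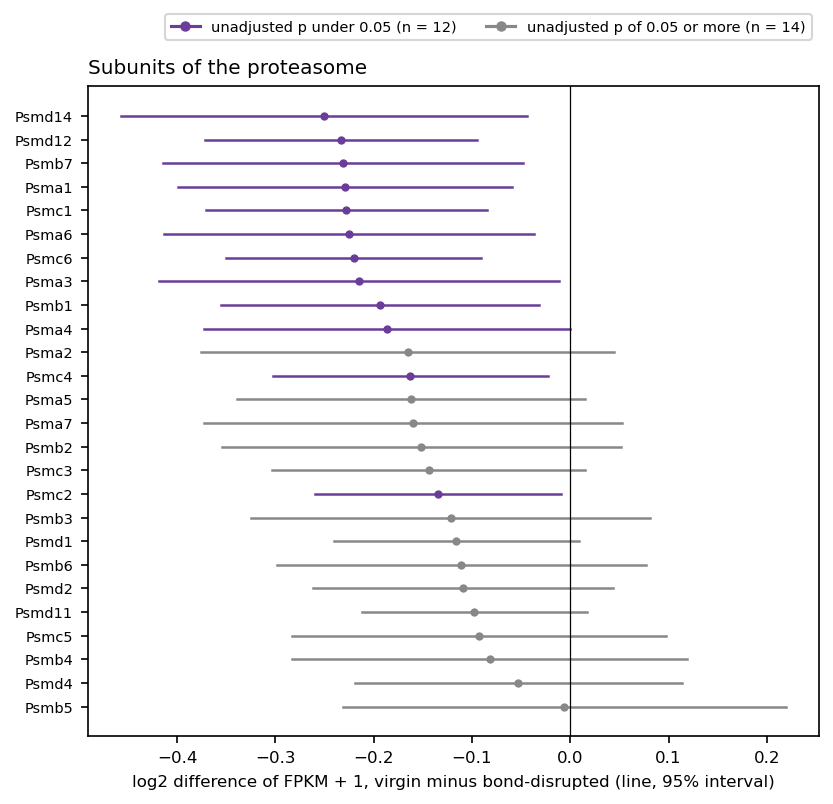
Log2 difference of own-length FPKM + 1 (virgin minus bond-disrupted, x axis) of the 26 proteasome subunits, with the 95% interval of the limma fit as a line. Every point lies left of 0, the 12 in purple have an unadjusted p under 0.05, and the size runs from −0.25 to −0.01.

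Other housekeeping machinery leaned the same way by less. Of 24 subunits of oxidative phosphorylation 23 were lower in virgins against 48.5% of all genes, with a median of −0.09 and none at an unadjusted p under 0.05. Atp5f1a, the alpha subunit of ATP synthase, averaged 223 ± 9.92 (SD) FPKM in the 5 virgins against 232 ± 12.1 FPKM in the 6 bond-disrupted animals. Quantile normalization left 20 of the 24 lower with a median of −0.04, and leaving out BD1, whose average was 0.37, left 16 with a median of −0.02. Cytosolic ribosomal protein genes were lower in 27 of 32 (median −0.08), yet without V2 17 of 32 were higher (median 0.0075). Rplp0, a protein of the ribosomal stalk, ran from 624 to 1076 FPKM among virgins and from 832 to 1025 FPKM among bond-disrupted animals. Antioxidant enzymes were lower in 19 of 23 (median −0.06) against 48.5% of all genes, with 1 at an unadjusted p under 0.05 against 2.06%, and the median was −0.0085 without BD1. This gene was the peroxiredoxin Prdx1, at 120, 124, 140, 130 and 136 FPKM in virgins and 114 to 178 FPKM in bond-disrupted animals (median 155), where BD2 and BD4 lay below the highest virgin. Prdx6, the lung peroxiredoxin that also acts as a phospholipase, was at 464 ± 57.2 against 524 ± 130 FPKM.

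Breakdown of valine and the other branched-chain amino acids had 16 of 21 genes lower in virgins (48.5% of all genes were), with a median of −0.07, and 3 of them had an unadjusted p under 0.05 (2.06% of all genes were lower at that limit). Hibadh, which oxidises a valine intermediate in mitochondria, had 23.0, 25.6, 25.7, 28.1 and 28.2 FPKM in virgins and 27.9 to 33.4 FPKM in bond-disrupted animals (median 30.2). V5 and V6 overlapped with the lowest of these (difference −0.20 ± 0.07, SE, adjusted p = 0.948). Dld, the dehydrogenase shared by several mitochondrial complexes, was at 23.5 to 25.3 against 24.8 to 29.9 FPKM, and Dbt, the core of the branched-chain dehydrogenase, at 11.6 to 15.1 against 13.6 to 17.2 FPKM. In the fit of diagonals the sign of Dld was reversed (0.0049). Dld also belongs to the citric acid cycle list, where 12 of 18 were lower with a median of −0.03, which was 0.0005 under quantile normalization, −0.077 without V5 and −0.0039 without V4. Chpt1, the enzyme that completes phosphatidylcholine, the main lipid of surfactant, was at 30.9, 25.5, 37.3, 31.2 and 27.2 FPKM in virgins against 30.8 to 39.99 FPKM (median 36.8), with BD1 among the virgins and V4 among the bond-disrupted animals. All 14 genes of fatty acid and surfactant lipid synthesis had a median of −0.05, which was −0.011 without V4 and −0.079 without V3.

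Clock genes lay on both sides. Of 18 clock genes 12 were higher in virgins and 6 lower (median 0.19), while over all genes the shares were 51.5% and 48.5%. In the first direction 3 clock genes had an unadjusted p under 0.05 and in the second 1, and 2.15% and 2.06% of all genes did. Dbp, an output transcription factor driven directly by the clock, had 43.0, 92.9, 68.8, 159 and 105 FPKM in virgins and 26.4 to 69.2 FPKM in bond-disrupted animals (median 60.1). V3, V5 and V6 were above the bond-disrupted range, V4 at its upper edge and V2 well inside it (difference 0.72 ± 0.33, SE, adjusted p = 0.948). Per3, a period repressor, was at 4.55, 8.35, 5.49, 10.5 and 7.85 FPKM against 2.97 to 7.49 FPKM, and Ciart, another repressor, at 2.52, 4.03, 2.50, 5.56 and 3.35 FPKM against 1.72 to 3.89 FPKM. In all of these V5 was the highest animal.

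Bmal1, the activator whose transcript cycles opposite to these genes, was lower in virgins, at 2.29, 1.31, 1.30, 0.601 and 1.29 FPKM against 1.34 to 3.71 FPKM (median 2.01). V5, highest for the repressors, was lowest for Bmal1, and V2 alone lay within the bond-disrupted range. Nr1d1, the nuclear receptor that represses Bmal1, averaged 129 ± 27.1 (SD) FPKM in the 5 virgins against 109.7 ± 12.4 FPKM in the 6 bond-disrupted animals. Without BD3 none of the clock genes was higher at an unadjusted p under 0.05, and without BD1 1 was. The median was 0.12 without V5 and also 0.12 without BD3. The hour of collection is not given in the sources used here, and its part in the result was not tested.

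Of the glucocorticoid response genes, the receptor and its classic targets, 13 of 15 were lower in virgins (median −0.31) against 48.5% of all genes, and 3 of them had an unadjusted p under 0.05 against 2.06% of all genes. Besides Lcn2 these were Angptl4, an inhibitor of lipoprotein lipase, and Errfi1, a feedback inhibitor of the EGF receptor. Angptl4 stood at 2.63, 1.82, 1.055, 1.91 and 0.918 FPKM in virgins and at 1.44 to 9.18 FPKM in bond-disrupted animals (median 2.98), with BD2 and BD3 far above the rest. Errfi1 was at 15.97, 12.4, 14.9, 16.2 and 11.3 FPKM against 14.6 to 40.6 FPKM (median 16.98), and its highest value, in BD2, stood above 18.9 FPKM, the next highest. Hsd11b1, which regenerates active glucocorticoid within cells, was at 97.1 ± 19.4 (SD) FPKM in the 5 virgins against 104 ± 19.9 FPKM in the 6 bond-disrupted animals, and the phosphatase gene Dusp1 at 74.3 ± 25.5 against 73.4 ± 22.3 FPKM.

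The median of the list depended on 1 animal. Its average was 1.24 in BD2, −0.27 to 0.04 in the other bond-disrupted animals and −0.29 to 0.02 in virgins. Without BD2, 8 of 15 genes were lower and the median was −0.06. The lymphocyte, monocyte and erythroid averages of BD2, given above, were the lowest of all animals. So were its averages for neutrophils (−0.66), alveolar macrophages (−0.65), plasma cells (−0.57) and platelets (−0.52). Whether these values are linked to the glucocorticoid list was not tested.

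Complement genes were lower in virgins in 17 of 18, against 48.5% of all genes, with a median of −0.27 and none at an unadjusted p under 0.05. Serping1, the inhibitor of the first complement protease, was at 341, 355, 290, 431 and 365 FPKM in virgins and at 319 to 570 FPKM in bond-disrupted animals (median 396), and C7, a part of the membrane attack complex, averaged 319 ± 51.5 against 361 ± 117 FPKM. The groups overlapped in both. List averages were 0.61 in BD3 and 0.76 in BD6, the animals with the highest macrophage averages, and −0.41 to −0.04 in the other 4. C1qa, C1qb and C1qc belong both to this list and to that of monocytes and other macrophages, so these averages are not independent. Without BD6, 13 of 17 were lower with a median of −0.13, and the median was −0.16 without BD3 and −0.17 without V6. Interferon response genes were lower in 12 of 16 (median −0.06). This median ran from −0.12 without BD6 to −0.0081 without BD4 (−0.0097 without BD3), and was 0.0041 in the fit of diagonals. Genes of antigen presentation were lower in 10 of 15 (median −0.08, or 0.0007 without BD6). B2m, the light chain of class I molecules, was at 1098 to 1400 FPKM in virgins and 1246 to 1500 FPKM in bond-disrupted animals (difference −0.21, which was 0.038 under quantile normalization). Of 18 cytokine and chemokine genes 7 were higher and 11 lower in virgins (median −0.07, or 0.054 without BD3). At an unadjusted p under 0.05, where 2.15% of all genes were higher, stood only Il10, which restrains inflammation. It was at 1.21, 1.063, 1.79, 1.58 and 0.787 FPKM in virgins and at 0 to 1.05 FPKM in bond-disrupted animals (median 0.371). V6 alone lay within the bond-disrupted range, and the level was close to the filter of 1 FPKM (difference 0.70 ± 0.26, SE, adjusted p = 0.948).

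Matrix genes had small positive medians. Collagen genes were higher in virgins in 13 of 17 (median 0.12) and genes of elastic fibres in 11 of 15 (median 0.06), with Ltbp2, a protein of the elastic fibre sheath, as the one member of both lists at an unadjusted p under 0.05. Over all genes 51.5% were higher and 2.15% higher at that limit. Its level was 8.62, 10.1, 10.2, 12.6 and 9.13 FPKM in virgins and 6.28 to 11.4 FPKM in bond-disrupted animals (median 7.396), and BD5 was the only one of these above the lowest virgin. With 1 animal left out the collagen median ran from 0.054 to 0.22 and that of elastic fibres from −0.01 to 0.16. Vasoactive genes were higher in 11 of 17 (median 0.12), and the median was 0.0006 without V2 and 0.046 without BD1. Nos3, the nitric oxide synthase of endothelium and the one member of that list at an unadjusted p under 0.05, was at 2.55, 5.93, 3.86, 3.48 and 4.11 FPKM against 1.34 to 3.98 FPKM (median 2.61), with V3 and V6 above the bond-disrupted range (difference 0.49, or 0.33 in the fit of diagonals). Among hormone and stress receptors, 12 of 18 tested were higher in virgins against 51.5% of all genes, with a median of 0.11 that was 0.067 without V6 and 0.043 with no filter on low values. Avpr2, the vasopressin receptor known from the kidney, was the one at an unadjusted p under 0.05 (2.15% of all genes were higher at that limit), at a level near 1 FPKM (0.73 to 2.00 against 0.329 to 1.14 FPKM). Thra, the main thyroid hormone receptor of many tissues, stood at 45.1 ± 3.51 (SD) FPKM in the 5 virgins against 41.3 ± 5.98 FPKM in the 6 bond-disrupted animals.

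Lists of general stress were close to 0. Heat shock and chaperone genes had a median of −0.04 (7 of 15 higher), with the constitutive chaperone Hspa8 at 373 ± 54.5 against 398 ± 49.3 FPKM (difference −0.096, but 0.20 in the fit of diagonals). The unfolded protein response had −0.05, immediate early genes 0.07, cholesterol synthesis and uptake −0.0027 and fatty acid oxidation −0.04. Single animals moved all of these medians. With 1 animal left out they ran from −0.07 to 0.0025 for heat shock genes, from −0.093 to −0.011 for the unfolded protein response, from 0.0096 (without V6) to 0.18 (without V3) for immediate early genes, from −0.11 to 0.098 for cholesterol and from −0.077 to 0.016 for fatty acid oxidation. Targets of the hypoxia-inducible factor had a median of −0.04 over 15 genes (0.029 without BD6), and their animal averages stayed within −0.05 to 0.04 in virgins and −0.11 to 0.16 in bond-disrupted animals. Pgk1, a glycolytic target, was 65.2 to 66.7 FPKM in all virgins and 53.8 to 97.7 FPKM in bond-disrupted animals, and the aldolase Aldoa 390 to 438 against 408 to 461 FPKM. Proliferation genes had a median of −0.0081, which was 0.013 with a pseudocount of 0.1 and 0.082 without BD3.

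The spread was wider among the bond-disrupted animals, although the difference in spread was not tested. Their SD of log2(FPKM + 1) was the larger in 9689 of 15463 genes (62.7%), with a median of 0.216 against 0.179 in virgins, and the SD of the list averages was the larger in 35 of 54 lists. BD2 was the highest or lowest bond-disrupted animal in 30 lists and BD6 in 29. Among virgins, V2 and V4 were the highest or lowest in 27 lists each and V6 in 25. In BD6 Acta1, the actin of skeletal muscle, was at 21.4 FPKM against 0.103 to 0.707 FPKM in the other bond-disrupted animals and 0.020 to 1.14 FPKM in virgins, but Ckm, the muscle creatine kinase, another of the 3 genes tested of that list, was at 1.0604 FPKM, within the 1.003 to 1.96 FPKM of the other bond-disrupted animals. BD6 also had the lowest averages for capillary endothelium (−0.69), smooth muscle (−0.83) and pericytes (−0.59). Genes of neurons and Schwann cells were lower in virgins in 5 of 6 (median −0.24), with a BD6 average of 1.21 and a median of −0.01 without that animal. The part of these values in the other lists was not tested. Where both animals were left out, a step chosen after seeing the data, 0 genes passed the test (lowest adjusted p 0.165) and 1140 had an unadjusted p under 0.05. The proteasome list kept 26 of 26 subunits below 0, 12 of them at that limit (median −0.18), and the ciliated list 13 of 13 above 0 (median 0.32), while the B cell median became 0.076, that of pericytes 0.025 and that of the glucocorticoid list −0.09.

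**Figure D5:**
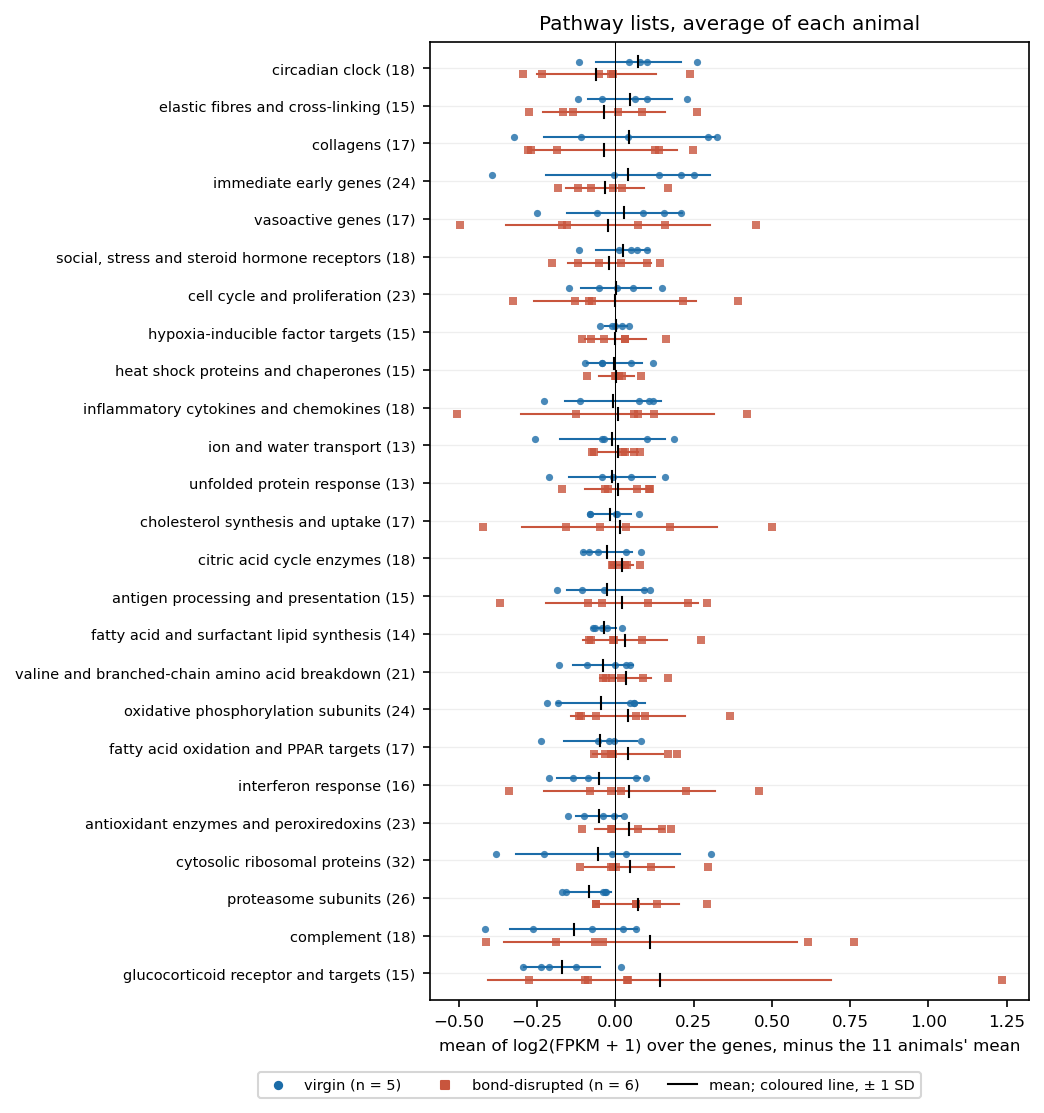
Average of each pathway list in each animal (x axis, log2(FPKM + 1) minus the mean of the 11 animals; number of genes tested in brackets), with virgins as blue circles, bond-disrupted animals as red squares, the group mean as a black tick and ± 1 SD as a coloured line. The proteasome averages of all virgins lie below 0, the glucocorticoid list holds 1 animal far to the right (BD2 at 1.24), and the complement list 2 (BD3 at 0.61 and BD6 at 0.76).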

How the data were processed

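RNA-seq was done on lung tissue of 17 male P. californicus. Per the labels and the submitters' processing notes, libraries were made from 1 µg of total RNA with the NEBNext Ultra II Directional kit, and reads passed through FastQC, Trim Galore 0.4.5, STAR 2.7.2, SAMtools 1.5 and featureCounts of Subread 1.5.3. The genome build is not given in the sources used here. The authors deposited FPKM, 1 column per animal with no comparison columns, and 0 columns belonged to no listed animal.

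Each deposited FPKM value had been divided by the length of another gene, as the lengths were recycled along the diagonals of the table. Of 27787 lengths 26822 were solved from the values, fragments were recovered, and FPKM was computed again with own lengths. Of the lengths of small RNAs, 1581 of 1651 equalled RefSeq, and 98.5% of recovered values were whole multiples of 0.5 fragments (tolerance 0.03 of a multiple). At 4 doubtful stretches 61 genes were left out. Depth over all animals was 15390000 to 34120000 fragments, up to a common factor that FPKM does not fix.

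Genes of at least 1 FPKM in at least 1 of 17 animals were tested as log2(FPKM + 1), which understates differences of low genes, with limma 3.58.1 in R 4.3.3, fitting 3 groups without covariates and with Benjamini-Hochberg adjustment. Differences are virgin minus bond-disrupted, and all p-values are two-sided. Means ± SD are over animals. The 54 lists (29 of cell types and 25 of pathways, 636 genes tested) were chosen, like the comparison itself, with earlier results of these data known, and are described by counts and medians without a test. The genes named were the 10 of smallest unadjusted p in each direction (mean of at least 1 FPKM, no LOC symbols) and, in each list, the 2 most abundant and up to 4 with an unadjusted p under 0.05. The scripts were tested on simulated data. Alternatives covered pseudocount, filter, scaling, variance trend, samples in the fit, family block, voom, deposited lengths, a fit of rows, columns and diagonals, and leaving out each animal. Python 3.11.15, numpy 2.4.6, scipy 1.17.1 and pandas 2.3.3 were also used.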

Additional observations from a re-analysis of the deposited data

Results flagged for a closer look

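Animals far from the rest of their group were looked for in the 54 lists and 85 named genes, in virgins and in bond-disrupted animals separately, with Dixon's ratio of the gap to the range. In 16 of 278 groups tested an animal stood apart, a pooled share near the 5% that chance gives. Lists and named genes share members, so the groups tested are not independent. BD6 accounted for 7 of the 16, BD2 for 3, and BD1, BD4 and BD5 for 1 each. Among virgins V6 accounted for 2 and V4 for 1. Most thus lay on the bond-disrupted side, and this difference was not tested.

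In BD6 the list average was 1.11 for skeletal muscle (−0.25 to 0.02 in the other bond-disrupted animals), 1.21 for neurons and Schwann cells (−0.29 to 0.19) and −0.34 for adipocytes (0.035 to 0.20). The skeletal muscle average of BD6, over 3 genes tested, rested on Acta1, which reached 21.4 FPKM (0.103 to 0.707 FPKM in the others). Ckm of that list was within the range of the other bond-disrupted animals (1.0604 FPKM). Uchl1 reached 13.99 FPKM (0.954 to 3.16 FPKM) and Fzd2 12.2 FPKM (6.17 to 8.38 FPKM), while Hsd11b1 was lowest at 66.5 FPKM (104 to 122 FPKM). In BD2 the average of the glucocorticoid receptor and its targets was 1.24 (−0.27 to 0.04), with Errfi1 at 40.6 FPKM (14.6 to 18.9 FPKM) and the plasma glutathione peroxidase Gpx3 at 1524 FPKM (735 to 1026 FPKM).

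Single values stood apart in other animals. Gtf2h2c was 21.6 FPKM in BD1 (18.4 to 19.6 FPKM in the other bond-disrupted animals), Dpt 224 FPKM in BD4 (87.3 to 134 FPKM) and Ltbp2 11.4 FPKM in BD5 (6.28 to 7.87 FPKM). Among virgins, V6 had 3.94 FPKM of Krt5 (0.067 to 0.649 FPKM in the others) and, as Krt5 is the one basal cell gene tested, a basal cell average of 1.65 (−0.56 to 0.06). Lef1 was 23.0 FPKM in V4 (8.15 to 11.3 FPKM in the other virgins).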

How the results depend on the processing

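No gene was called under any alternative except the deposited lengths, which called 35, and their divisors by construction differ from animal to animal. The genes at an unadjusted p under 0.05 numbered 1015 without a filter, 1257 with deposited lengths and 1140 without BD2 and BD6, and 467 (without V3) to 1088 (without BD2) when 1 animal was left out. Otherwise they numbered 527 to 772.

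A shared number marks virgin and bond-disrupted animals of 1 family, as siblings or, for some virgins such as V3, as cousins, so the pairs are not equally related. Deviations of the 5 such pairs correlated at −0.21 to 0.061, 0 of them above 0.1, and 0 virgins correlated best with their own number. With the number as a replicate block, 599 genes had an unadjusted p under 0.05 (342 higher, 257 lower), 0 were called and the lowest adjusted p was 0.185. Of the proteasome subunits 25 were lower, 6 at that limit (median −0.14).

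List medians moved by more than the spread between animals in few cases with own lengths, and the cause was not tested. Neuroendocrine cells had −0.43 with a pseudocount of 0.01, −0.46 with a mean of at least 1 FPKM and −0.50 in voom. Dendritic cells had 0.16 and 0.19 with pseudocounts of 0.1 and 0.01 and 0.17 in voom. Targets of the hypoxia-inducible factor had 0.066 without BD2 and BD6, and mast cells −0.15 to 0.18 with 1 animal left out.

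With deposited lengths medians were 0.11 (neuroendocrine), 0.61 (lymphatic), −0.24 (fibroblasts), −0.81 (skeletal muscle), 0.33 (adipocytes), −0.38 (B cells), −0.40 (plasma cells), 0.34 (alveolar macrophages), 0.25 (dendritic), −0.54 (mast cells), −0.21 (thymus), −0.054 (clock), −0.17 (heat shock), −0.48 (unfolded protein response), 0.041 (hypoxia), −0.48 (interferon), −0.35 (antigen presentation), −0.29 (oxidative phosphorylation), 0.32 (citric acid cycle), −0.32 (valine), 0.26 (cholesterol), −0.32 (surfactant lipids), 0.34 (fatty acid oxidation), −0.35 (proteasome), −0.28 (ion transport) and −0.17 (hormone receptors). Signs of named genes turned for Telo2 (−0.36), Spata13 (−0.98), Tbc1d9 (−1.17), Capn10 (−0.26), Slc22a18 (−0.59), Fbxl5 (0.30), Ndufaf1 (1.16), Dnai1 (−0.25), Tnfrsf17 (−0.61), Lef1 (−0.0099), Eomes (−0.27), Dld (0.96), Psmc1 (2.33) and Ltbp2 (−0.20). In the fit of rows, columns and diagonals Dld (0.0049), Hspa8 (0.20), Atp5f1a (0.0088), Dusp1 (0.009), Gpx3 (−0.01) and Pecam1 (−0.02) turned, as did Aldoa (0.03), B2m (0.038) and Dusp1 (0.046) under quantile normalization and Inmt (−0.0005) without BD2 and BD6.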
